A study of Rattus norvegicus with 48 samples.

Results

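The mechanosensing channels, YAP pathway and contractile genes examined here were 10 rat genes chosen by name: Piezo1, Piezo2, Trpv4, Yap1, Wwtr1, Tead1, Ankrd1, Acta2, Tagln and Myl9. Each was found as 1 row in the retina table and 1 row in the posterior eye table, 10 of 32883 genes in each. RNA was sequenced from 24 female Long-Evans rats, with a posterior eye library and a retina library from every animal. Ovariectomy (OVX), the surgical removal of the ovaries, was set against sham surgery at 2 ages, giving the groups aged OVX, aged sham, young OVX and young sham with 6 animals each. Aged animals, which the submitters call middle-aged, were 9 to 10 months old and young animals 3 to 4 months old. The labels give each animal its own number, so the spread within a group is a spread between animals. Those numbers run in group order, so an effect of handling order cannot be told apart from the groups. OVX in rats is a model of the abrupt, surgical loss of ovarian hormones.

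Cells of the eye wall and retina are stretched by intraocular pressure. PIEZO1 and PIEZO2 are cation channels opened directly by membrane tension, and TRPV4 is a calcium-permeable channel sensitive to cell swelling and stretch. YAP (Yap1) and TAZ (Wwtr1) are transcriptional coactivators that enter the nucleus when actin is under tension and the Hippo kinases are inactive, where they act through TEAD factors such as TEAD1 on targets that include Ankrd1. Smooth muscle alpha-actin (Acta2), transgelin (Tagln) and the regulatory myosin light chain (Myl9) form or bind the contractile apparatus of vascular smooth muscle, pericytes and myofibroblasts, and their genes respond to serum response factor (SRF).

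Levels are counts scaled to library size (CPM) with TMM factors, which correct library totals for composition, and library totals were 11470945 to 22971367 counts (posterior eye) and 12916146 to 30737547 counts (retina). The posterior eye libraries held several tissues in unequal amounts. The summed level of 12 rod photoreceptor genes ranged from 101.1 to 35400 CPM between them, and that of 13 skeletal muscle genes from 10460 to 47550 CPM. A set of 4 libraries, all from sham animals (1 aged, 3 young), held 2000 CPM or more of sebaceous and meibomian gland genes. Retina libraries held 89110 to 108100 CPM of the rod genes and a variable 4013 to 66230 CPM of 9 lens genes.

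Promoter windows of the 250 bases before the annotated start were found for 5 of the 10 genes in RefSeq (rat assembly GRCr8). Those of Acta2 and Yap1 are shown because they alone among the 5 held a searched motif. In capitals are GGAATG, the core that TEAD factors recognise (searched on both strands, also as CATTCC), and CArG boxes, the SRF site, with at most 1 departure from the consensus. The Acta2 window, chr1:241172504-241172753 on the minus strand, held GGAATG at bases -196 to -191 from the start, CCCTATATGG at -134 to -125 and CCTTGTTTGG at -84 to -75, none overlapping another. The Yap1 window, chr8:13451438-13451687 on the minus strand, held GGAATG at -116 to -111.
Acta2: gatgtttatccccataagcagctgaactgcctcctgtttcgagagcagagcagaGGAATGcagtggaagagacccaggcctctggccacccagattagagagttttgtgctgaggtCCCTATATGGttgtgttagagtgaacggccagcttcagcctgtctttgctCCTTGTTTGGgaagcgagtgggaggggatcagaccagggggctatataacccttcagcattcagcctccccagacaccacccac
Yap1: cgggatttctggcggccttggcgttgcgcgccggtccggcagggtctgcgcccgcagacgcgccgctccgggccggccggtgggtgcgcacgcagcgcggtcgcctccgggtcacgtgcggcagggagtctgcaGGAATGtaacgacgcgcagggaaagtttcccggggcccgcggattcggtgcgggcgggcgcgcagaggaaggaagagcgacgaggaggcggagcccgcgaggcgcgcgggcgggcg
Among 33469 rat promoter windows of the same length, 12.1% held GGAATG on either strand, 8.08% a CArG box with at most 1 departure and 1.08% both. The windows differed in base composition: G and C made up 54% of the Acta2 window, which held 3 CpG dinucleotides, and 76% of the Yap1 window, which held 44. The median of all windows was 51.2%. The Piezo2, Trpv4 and Wwtr1 windows held neither motif and were 66.4% to 72.8% G and C.

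On average, all 10 genes were higher in the posterior eye than in the retina of the same animals. Ankrd1, Acta2 and Tagln differed most, then Trpv4, Myl9, Piezo2 and Wwtr1, then Piezo1, and Yap1 and Tead1 differed least. In a fit over all 48 libraries, edgeR's quasi-likelihood test with Benjamini-Hochberg adjustment called all 10 higher, against a background of 47.8% of the 17153 genes tested. Levels in this comparison are on the scale of that joint fit, which did not pair libraries by animal. Lower RNA per cell and fewer expressing cells cannot be told apart in bulk tissue, here or in the comparisons that follow.

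Tagln averaged 235.4 ± 57 CPM in the posterior eye and 9.41 ± 1.58 CPM in the retina (SD, n = 24 each), a log2 difference of 4.65 ± 0.10 (SE, adjusted p = 3.44e-35). Acta2 averaged 66.9 ± 24 CPM in the posterior eye and 2.54 ± 0.965 CPM in the retina, a 26.7-fold difference with a 95% interval of 21.1 to 33.8. For Myl9 the means were 194.8 CPM in the posterior eye and 13.6 CPM in the retina, 14.3-fold apart. None of these contractile genes had overlapping ranges between the tissues.

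Ankrd1, a nuclear and sarcomeric ankyrin-repeat protein of striated muscle as well as a YAP target, was 28.1-fold higher in the posterior eye (95% interval 18.3 to 43.2). Its retina counts were only 0 to 7 per library, however, and the lowest posterior eye library, at 0.342 CPM, lay below the highest retina library, at 0.437 CPM. Trpv4 averaged 24.8 ± 6.55 CPM in the posterior eye and 1.73 ± 0.498 CPM in the retina (log2 difference 3.85 ± 0.13), and Piezo2 13.3 ± 3.44 CPM and 1.26 ± 0.530 CPM in the same tissues (3.43 ± 0.12). Piezo1 was less unequal, with 117.4 ± 19.5 CPM in the posterior eye, 30.5 ± 6.08 CPM in the retina and a log2 difference of 1.95 ± 0.081. The ranges of the 3 channels did not overlap between tissues.

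The YAP paralogues divided between the tissues unequally. Wwtr1 was 9.14-fold higher in the posterior eye (95% interval 8.17 to 10.2), at 50 ± 8.07 CPM there and 5.47 ± 1.05 CPM in the retina. Yap1 was 1.57-fold higher (1.45 to 1.70), at 8.29 ± 1.1 CPM in the posterior eye and 5.27 ± 0.624 CPM in the retina. Tead1, the DNA-binding partner of both, was 1.5-fold higher (1.38 to 1.63). The intervals of the Wwtr1 and Yap1 differences did not overlap. Yap1 was higher in the posterior eye in 23 of 24 animals and each of the other 9 genes in 24 of 24. In all, 7 genes had ranges that did not overlap, against 52.1% of all genes tested, and the exceptions were Yap1, Tead1 and Ankrd1. Cell type markers differed too, on the scale of each tissue. In the posterior eye and retina, 7 pericyte genes summed to 292.6 to 562.1 and 59.7 to 81.1 CPM. The 13 skeletal muscle genes summed to 10460 to 47550 and 36.6 to 593.3 CPM, and 9 scleral fibroblast genes to 4895 to 10660 and 118 to 459.4 CPM. Endothelial sums overlapped, at 492.1 to 985.6 and 434.1 to 600 CPM. Muller glia genes were lower in the posterior eye (2895 to 5435 against 6625 to 7915 CPM), as were the rod and lens genes. The part of these markers in the differences was not tested.

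**Figure D1:**
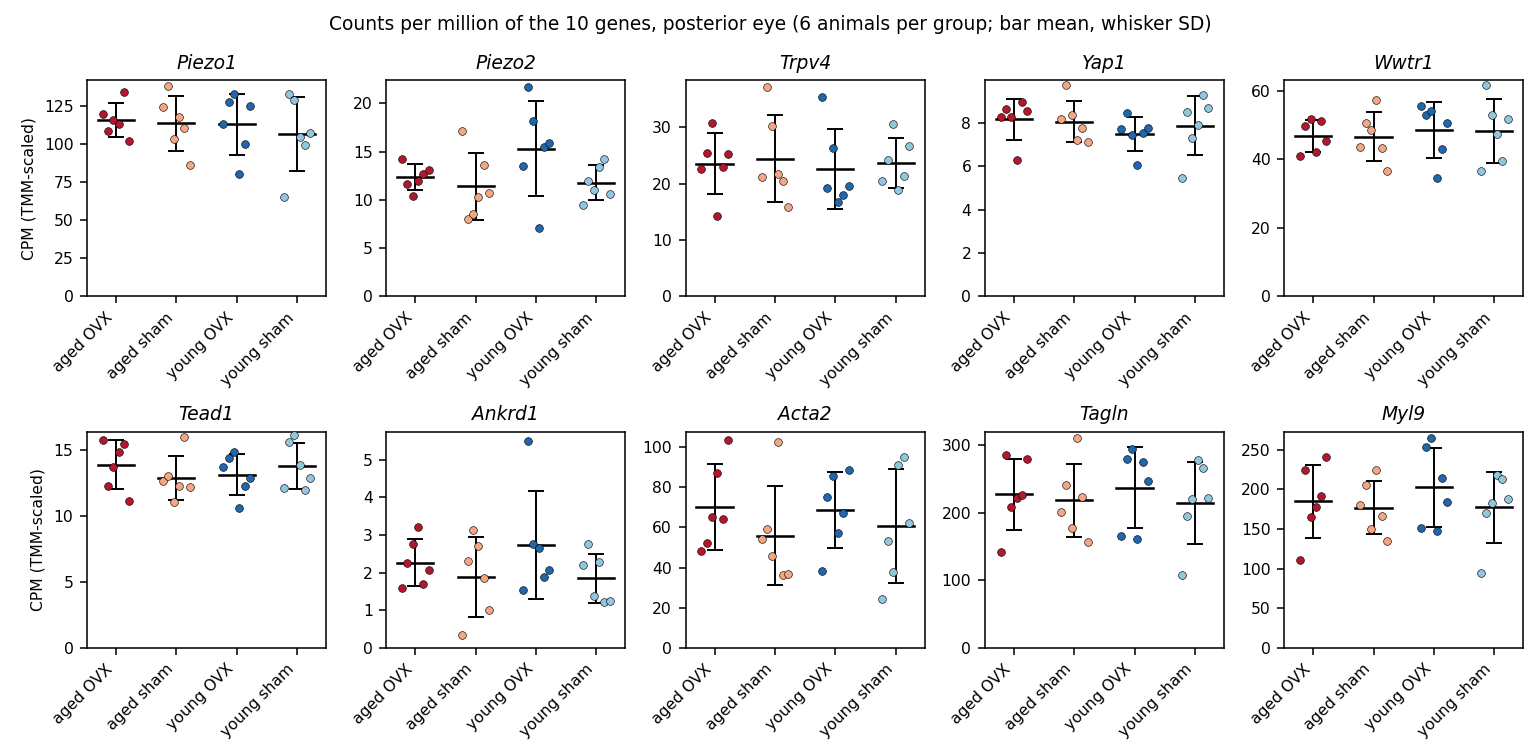
CPM (linear axis from 0) of the 10 genes in every posterior eye library by group, with 1 point per animal, a bar at the group mean and a whisker of 1 SD. The 4 groups overlap for every gene, and the largest ratio between group means is 1.48, for Ankrd1.

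In the posterior eye, none of the 10 genes passed the test for OVX, for age or for their interaction. Group means of a gene were at most 1.48-fold apart (Ankrd1). Single libraries over all groups were 1.52-fold (Tead1) to 16.3-fold (Ankrd1) apart. That span can never be smaller than the span of the group means, so it is given as a description only. DESeq2 and limma-voom called none of them in the 6 contrasts either, and 0 of the 10 had an unadjusted p under 0.05 in edgeR. Of 16401 genes tested, edgeR called 0.0061% for OVX against sham in young animals and 0% in the other 5 contrasts. At an unadjusted p under 0.05 stood 6.24% of genes for OVX in young animals, 2.57% in aged animals, 5.72% over both ages, 2.93% for age in sham animals, 10.1% for age in OVX animals and 2.97% for the interaction. The smallest adjusted p of the 10 genes in any contrast of this edgeR fit was 0.655, for Piezo2.

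Among the channels, Piezo2 lay farthest from 0. Its lowest, median and highest levels were 7.05, 15.7 and 21.7 CPM in young OVX posterior eyes, against 9.43, 11.5 and 14.3 CPM in young sham posterior eyes. The young OVX group held both the lowest and the highest of these 12 libraries, so the sham range lay inside the OVX range, and the log2 difference was 0.37 ± 0.20 (adjusted p = 0.862, edgeR). The lowest was animal 10 alone, with the next young OVX library at 13.5 CPM. Over 34 alternatives the log2 difference was 0.25 to 0.53, and its lowest adjusted p was 0.251 (edgeR), without animal 10. Aged OVX posterior eyes had 10.4, 12.4 and 14.2 CPM and aged sham ones 8.04, 10.5 and 17.1 CPM, a log2 difference of 0.12 ± 0.20. Piezo1 had group medians of 114 CPM in aged OVX, 114.1 in aged sham, 118.5 in young OVX and 105.7 in young sham animals. The 95% interval of its OVX effect, 0.898 to 1.20-fold over both ages, bounds the change these libraries leave room for. Trpv4 gave 0.957-fold (0.773 to 1.18) for the same contrast.

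Wwtr1 was the most even of the 10 across groups: its means were 46.8 CPM in aged OVX, 46.7 in aged sham, 48.5 in young OVX and 48.4 in young sham posterior eyes, and the OVX effect over both ages was 1.00-fold with a 95% interval of 0.879 to 1.14. Yap1 (0.982-fold, 0.868 to 1.11) and Tead1 (1.01-fold, 0.907 to 1.14) had intervals of similar width. For Ankrd1 the interval was far wider. It had 1.53, 2.36 and 5.49 CPM (lowest, median, highest) in young OVX posterior eyes and 1.22, 1.79 and 2.77 CPM in young sham ones, with 25 to 115 and 25 to 61 counts per library behind them. A single young OVX library, animal 8, stood above all others, the groups overlapped, and the log2 difference was 0.57 ± 0.39 (adjusted p = 0.899).

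The contractile genes varied widely between the animals of a group. Acta2 had 48.1, 64.7 and 103.7 CPM in aged OVX posterior eyes, against 36.3, 50.01 and 102.4 CPM in aged sham ones, and in young animals 38.04, 71.01 and 88.7 CPM after OVX, against 24.2, 57.7 and 95.3 CPM after sham surgery. Of the 12 OVX libraries 9 lay above the median of the sham libraries, the ranges overlapped widely, and the OVX effect over both ages was 1.19-fold with a 95% interval of 0.874 to 1.62. Tagln gave 1.07-fold (0.861 to 1.33) and Myl9 1.09-fold (0.891 to 1.34). The lowest libraries of Piezo1, Yap1, Acta2, Tagln and Myl9 were all that of young sham animal 1, the posterior eye library with the fewest counts, whose 32730 CPM of rod genes was the second highest.

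Without the 4 libraries rich in sebaceous and meibomian gland genes, none of the 10 genes was called in any of these contrasts. The same held with the rod, lens, skeletal muscle or pericyte marker level added to the model.

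**Figure D2:**
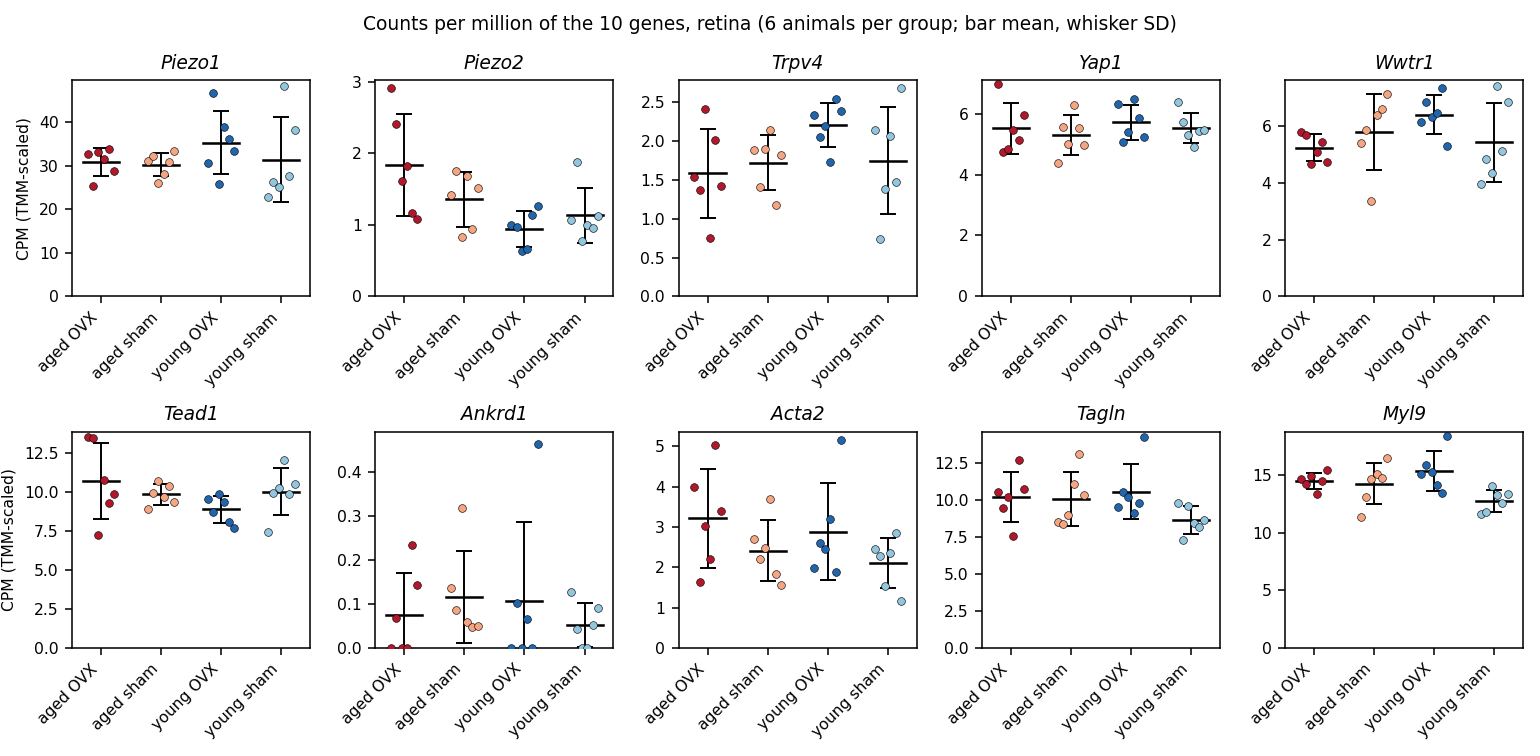
CPM (linear axis from 0) of the 10 genes in every retina library by group, drawn as for the posterior eye. Myl9 spans 13.4 to 18.4 CPM in young OVX retinas and 11.6 to 14.1 CPM in young sham retinas, and Piezo2 spans 1.09 to 2.91 CPM in aged OVX retinas and 0.636 to 1.26 CPM in young OVX retinas.

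In the retina, again none of the genes was called for OVX, age or their interaction. The values nearest to a call were a higher Myl9 in young OVX than in young sham animals and a higher Piezo2 in aged OVX than in young OVX animals. Ankrd1, at 0 to 7 counts per library, did not pass the filter on low counts and was not tested, so 9 of the 10 genes were tested among 15481. Over all genes tested edgeR called 0.0194% for OVX in young animals, 0.00646% in aged animals, 0.0517% over both ages, 0.0388% for age in sham animals, 0.0711% for age in OVX animals and 0.0452% for the interaction. DESeq2 and limma-voom called none of the 9 either. Over the 12 contrasts of both tissues, 7 of 114 tests of these genes had an unadjusted p under 0.05, all in the retina.

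Those 7 fell in 4 contrasts. For OVX in young animals they were Myl9 and Tagln, where 11.7% of all genes reached that level, and over both ages Myl9 and Acta2, where 10.8% did. For aged against young OVX animals they were Piezo2 and Tead1, where 9.23% of all genes did, and for the interaction Myl9 alone, where 6.21% did. For OVX in aged animals and for age in sham animals, where 6.47% and 10.7% of all genes reached that level, 0 of the 9 did.

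Myl9 had 13.4, 15.2 and 18.4 CPM (lowest, median, highest) in young OVX retinas and 11.6, 12.9 and 14.1 CPM in young sham retinas. Every young OVX retina lay above the sham median, and the ranges shared only the span between the lowest OVX and the highest sham library. The log2 difference was 0.26 ± 0.080 (1.20-fold, 95% interval 1.07 to 1.35), with an adjusted p of 0.2 in edgeR's quasi-likelihood test and of 0.115 (DESeq2) to 0.362 over 33 alternatives. In aged animals Myl9 had 13.4, 14.5 and 15.5 CPM after OVX and 11.3, 14.7 and 16.5 CPM after sham surgery, a log2 difference of 0.03 ± 0.081. The test of the difference between these 2 effects gave -0.24 ± 0.11 (adjusted p = 0.79, edgeR). Tagln followed the same order, with a mean of 10.5 ± 1.87 CPM in young OVX and 8.63 ± 0.947 CPM in young sham retinas (log2 difference 0.29 ± 0.13, adjusted p = 0.377), and 10.2 ± 1.67 CPM in aged OVX and 10.1 ± 1.82 CPM in aged sham retinas. Acta2 averaged 3.22 ± 1.23 CPM in aged OVX and 2.42 ± 0.749 CPM in aged sham, and 2.88 ± 1.21 CPM in young OVX and 2.11 ± 0.628 CPM in young sham retinas, 1.35-fold over both ages (95% interval 1.02 to 1.78, adjusted p = 0.416). The library of young OVX animal 12 was the highest of its group for all 3 contractile genes, at 18.4 CPM of Myl9, 14.2 CPM of Tagln and 5.17 CPM of Acta2. Without it the log2 difference between young OVX and young sham retinas was 0.21 for Myl9 (adjusted p = 0.353), 0.19 for Tagln (adjusted p = 0.597) and 0.20 for Acta2 (adjusted p = 0.844, against a log2 difference of 0.44 with it), in edgeR. Over both ages the Acta2 log2 difference without it was 0.31 (adjusted p = 0.592).

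Marker genes of neighbouring cells were not level between the same groups. The 7 pericyte genes summed to a median of 72.8 CPM in young OVX and 64.9 CPM in young sham retinas, the 9 scleral fibroblast genes to 284.1 and 211.8 CPM, the 9 pigment epithelium genes to 845 and 682.5 CPM and the 6 melanocyte genes to 86.8 and 48.8 CPM in the same order, with overlapping ranges in each case. The pigment epithelium list shares Pmel with the melanocyte list and Rlbp1 with the Muller glia list. In the same order, median levels were 445.8 and 451.5 CPM for Rlbp1 and 30.1 and 16.2 CPM for Rpe65. Of the single genes, 7 of 9 pigment epithelium genes (6 at an unadjusted p under 0.05) and 6 of 6 melanocyte genes (3 at that p) lay above 0, and 9 of 10 skeletal muscle genes lay below 0 (5 at that p, median log2 change -1.15), none of them called. The skeletal muscle sums had similar medians, 44.4 CPM in young OVX and 43.1 CPM in young sham retinas, and the highest library held 134.1 CPM in young OVX and 593.3 CPM in young sham retinas. With the pericyte level in the model the Myl9 log2 difference was 0.27, with the lowest adjusted p of the marker fits (0.132, edgeR). The skeletal muscle, rod and lens levels were also fitted, and over all 33 alternatives the difference was 0.208 to 0.3. The part of the fibroblast, pigment epithelium and melanocyte markers in the Myl9 difference was not tested.

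Piezo2 counts in the retina were low, 10 to 53 per library. Its lowest, median and highest levels were 1.09, 1.72 and 2.91 CPM in aged OVX retinas and 0.636, 0.983 and 1.26 CPM in young OVX retinas. Each aged OVX library was above the young OVX median, and the groups overlapped in the interval from 1.09 to 1.26 CPM. The log2 difference was 0.97 ± 0.27 (1.96-fold, 95% interval 1.34 to 2.87), with an adjusted p of 0.202 in edgeR and of 0.0971 (DESeq2) to 0.433 over 33 alternatives. In sham animals the same comparison of ages gave 0.25 ± 0.26, with means of 1.36 ± 0.384 CPM in aged and 1.13 ± 0.386 CPM in young retinas. Over 33 alternatives that sham difference was -0.066 to 0.464. Its lowest adjusted p (0.552, edgeR) came without young sham animal 2, which at 1.88 CPM stood apart from its group. The interaction, 0.72 ± 0.38, had an adjusted p of 0.804. Marker genes were not level in the same comparison of aged with young OVX retinas. Above 0 lay 7 of 7 pericyte genes and 7 of 8 endothelial genes, 1 of the endothelial genes called higher. Below 0 lay 8 of 8 scleral fibroblast, 6 of 6 melanocyte, 9 of 9 lens and 8 of 9 pigment epithelium genes, 2 of the pigment epithelium genes called lower. So did 10 of 10 skeletal muscle genes (median log2 change -0.375) and 5 of 5 Schwann cell and myelin genes, none of them called. The melanocyte genes summed to a median of 58.6 CPM in aged OVX and 86.8 CPM in young OVX retinas. With the pericyte or the lens level in the model the Piezo2 log2 difference was 0.91 or 0.81. With the skeletal muscle level it was 1.05, with the lowest adjusted p of the marker fits (0.133, edgeR). The rod level was also fitted, and Piezo2 was not called in any marker fit. The part of the endothelial, fibroblast, melanocyte, pigment epithelium and Schwann cell markers was not tested.

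Trpv4 went the other way in OVX animals, at 0.754, 1.48 and 2.41 CPM in aged OVX and 1.73, 2.26 and 2.54 CPM in young OVX retinas (0.713-fold, 95% interval 0.500 to 1.02, adjusted p = 0.569). Wwtr1 was at 4.69, 5.26 and 5.81 CPM in aged OVX and 5.30, 6.40 and 7.36 CPM in young OVX retinas (0.816-fold, 0.655 to 1.02, adjusted p = 0.582). All 6 aged OVX retinas lay below the young OVX median for Wwtr1, and 5 of 6 for Trpv4. The summed pigment epithelium genes, Rlbp1 among them, moved with them, spanning 586.3 to 653.6 CPM in aged OVX and 698.3 to 903.1 CPM in young OVX retinas, with no overlap. Their part in these values was not tested. Yap1 was the steadiest gene in the retina, with group means between 5.29 and 5.72 CPM. Its OVX effect over both ages was 1.04-fold (0.934 to 1.15), and that of Piezo1 was 1.07-fold (0.920 to 1.24). In every contrast of OVX or of age, the ranges of the groups compared overlapped for each of the 10 genes in the posterior eye and each of the 9 tested in the retina. Of all genes tested, the groups did not overlap for 1.46% for OVX in young retinas, 0.291% in aged retinas, 0.633% for age in sham retinas and 0.743% for age in OVX retinas, and for 0.238%, 0.0976%, 0.128% and 0.616% in the posterior eye in the same contrasts.

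**Figure D3:**
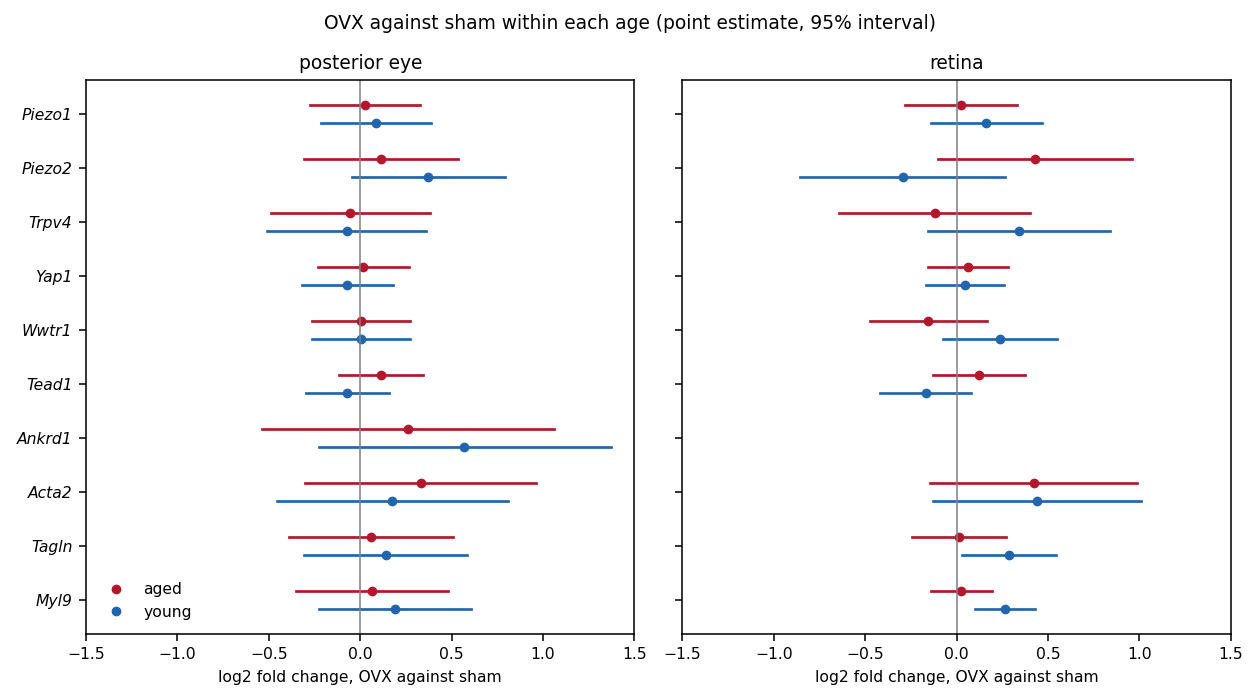
Log2 fold change of OVX against sham (point) with its 95% interval (line) in aged (red, upper) and young (blue, lower) animals, for the posterior eye (left) and retina (right); Ankrd1 was not tested in the retina. Only the young retina intervals of Myl9 (0.098 to 0.43) and Tagln (0.030 to 0.55) lie to 1 side of 0, before adjustment over all genes.

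The difference between the OVX effects in the posterior eye and the retina was not called for any of the 10 genes in the joint fit (adjusted p = 1 for each, edgeR), where 0.00583% of all genes were called. At an unadjusted p under 0.05 stood 0 of the 10, and 4.94% of all genes. The difference was -0.002 ± 0.16 on the log2 scale for Myl9 and 0.36 ± 0.79 for Ankrd1, so its precision ranged widely between genes.

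Other genes of the same pathways were not called for surgery or age, and most were called between tissues. In 5 lists of YAP and TAZ targets, Hippo components, other mechanosensitive channels, smooth muscle genes, and actomyosin and SRF genes, no gene was called for OVX or age in either tissue. Of 20 YAP and TAZ targets tested, 12 lay above 0 and 8 below for OVX over both ages in the posterior eye, with a median log2 change of 0.02, against -0.003 for all genes. Ctgf, a matricellular YAP target, averaged 300.1 CPM in OVX and 253.5 CPM in sham posterior eyes (log2 difference 0.25 ± 0.14, adjusted p = 0.91). Pkd1, which encodes polycystin-1, had the smallest p of the lists there, at 158.7 CPM in OVX and 134.2 CPM in sham animals (0.24 ± 0.072, adjusted p = 0.665).

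In the retina over both ages, 15 of the 19 actomyosin and SRF genes tested lay above 0 and 6 of them had an unadjusted p under 0.05, with a median log2 change of 0.07. Of all genes tested there, 49.9% lay above 0 and 10.8% had an unadjusted p under 0.05 in either direction, and the median log2 change was -0.0002. Markers of other cells were not level in the same contrast, with 6 of 7 pericyte genes above 0, 2 of them at an unadjusted p under 0.05, and 9 of 9 lens genes above 0 (median log2 change 0.54). Below 0 lay 9 of 10 skeletal muscle genes (median log2 change -0.494), 6 of 9 pigment epithelium genes and 6 of 8 Muller glia genes, the last 2 lists with 2 genes each at that p. The part of these markers in the counts was not tested. Srf itself averaged 19.7 CPM in OVX and 17.7 CPM in sham retinas (0.15 ± 0.059, adjusted p = 0.324), and Rock1, a kinase that promotes myosin phosphorylation, 72.5 and 68.6 CPM in the same groups (adjusted p = 0.279). Of 16 smooth muscle genes 12 lay above 0 and 3 had an unadjusted p under 0.05, with a median log2 change of 0.03 beside the same values for all genes and for the pericyte markers. Among the 12 was Cald1, the actin-binding caldesmon, at 32.5 CPM in OVX and 27.2 CPM in sham retinas (0.26 ± 0.094, adjusted p = 0.314). Tead3 had 18.0 CPM in OVX and 16.3 CPM in sham retinas (adjusted p = 0.279), and the YAP target F3, tissue factor, 19.7 and 22.5 CPM in the same groups (-0.19 ± 0.063, adjusted p = 0.27). With age in sham retinas, Smtn (smoothelin) was at 24.2 CPM in aged and 19.9 CPM in young animals (0.28 ± 0.068, adjusted p = 0.15), and Frmd6, an upstream regulator of the Hippo kinases, at 10.1 and 12.6 CPM in the same groups (adjusted p = 0.25).

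Between tissues, 16 of 18 smooth muscle genes were higher in the posterior eye and 1 lower by the test, and 17 and 2 of 19 actomyosin and SRF genes. The YAP and TAZ targets were divided, with 12 higher and 8 lower of 20, as were the Hippo components, with 13 and 5 of 20. Cyr61, a matricellular YAP target, averaged 142.7 CPM in the posterior eye and 2.60 CPM in the retina (log2 difference 5.76 ± 0.14), and Axl, a receptor tyrosine kinase, 180.8 and 8.26 CPM. Frmd6 averaged 132.4 CPM in the posterior eye and 11.3 CPM in the retina. Of the other mechanosensitive channels, 7 were higher and 10 lower of 19. Tmem63a was higher, at 72.8 CPM in the posterior eye and 4.44 CPM in the retina, and Tmem63b lower, at 77.7 and 126.8 CPM. Over all genes 93% were called in this comparison and 47.8% were called higher, so the genes as a whole were divided too.

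**Figure D4:**
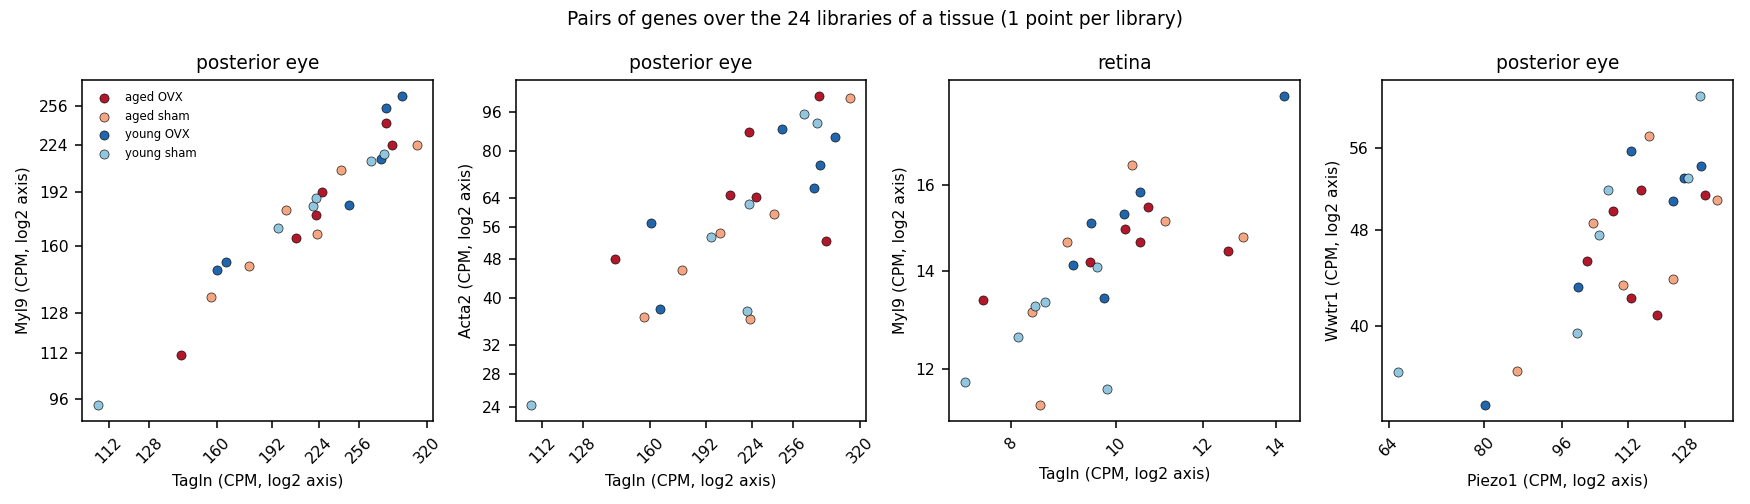
CPM of 2 genes against each other (both axes log2), 1 point per library, coloured by group: Tagln and Myl9 in the posterior eye, Tagln and Acta2 in the posterior eye, Tagln and Myl9 in the retina, and Piezo1 and Wwtr1 in the posterior eye. The contractile genes rise together across all groups, most tightly Tagln and Myl9 in the posterior eye (r = 0.965).

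Although groups did not separate, the genes varied together between animals. Of 45 pairs in the posterior eye, 39 had a positive correlation of log2 CPM over the 24 libraries, and 10 passed an adjusted permutation p of 0.05, all positive. Tagln and Myl9 were closest, with Pearson's r = 0.965 and Spearman's rho = 0.957 (permutation p = 1e-05, the smallest that 100000 permutations can give, adjusted p = 0.0003), and r was 0.939 without the 2 libraries farthest from the median of Tagln and 0.968 within groups. Acta2 followed Tagln with r = 0.781 and rho = 0.722 (adjusted permutation p = 0.0003, 0.68 without the 2 farthest libraries). Piezo1 followed Wwtr1, with r = 0.752 and rho = 0.692 (adjusted permutation p = 0.000338, 0.64 without them), and Tead1, with r = 0.611 and rho = 0.695 (adjusted permutation p = 0.0081, 0.588 without them). Piezo1 and Yap1 had r = 0.626 but rho = 0.3, and r fell to 0.192 without the 2 farthest libraries, so that relation rested on them. The same was so for Piezo1 with Tagln (0.527, and 0.116 without them) and with Myl9 (0.531 and 0.184).

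In the retina 2 of 36 pairs passed. These were Tagln and Myl9, with r = 0.715 and rho = 0.75 (adjusted permutation p = 0.00504, 0.626 within groups), and Piezo1 and Wwtr1, with r = 0.665 and rho = 0.644 (adjusted permutation p = 0.00864, 0.636 within groups). Both pairs thus passed in both tissues, although the 2 libraries of an animal shared little of their deviation from the group means (median correlation 0.0696). In the posterior eye Wwtr1 and Piezo1 both ran against the rod level (r = -0.808 and -0.576). The part of tissue make-up in these pair correlations was not tested.

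The genes most like each member over the 24 posterior eye libraries, by Pearson's r of log2 CPM, differed by role. For Tagln they were Myl9, Myh11, the smooth muscle myosin heavy chain (0.93), Csrp1 (0.921), Itga8, an integrin subunit of smooth muscle and mesenchyme (0.869), and Tmem204 (0.832), and the 5 for Myl9 were Tagln and the same other 4. Acta2 was most like Tagln, Myl9, Spcs1, Myh11 (0.727) and Cbx1. For Ankrd1 they were Tph1 (0.787), Csrp3, the muscle LIM protein (0.78), Tceal7, Hspb7, a small heat shock protein of heart and skeletal muscle (0.738), and Tnnt1, the slow skeletal troponin T (0.733). Wwtr1 was most like Frmd6 (0.923), Piezo1 like Fgfr2 (0.906), Piezo2 like Pamr1 (0.892), Trpv4 like Pigq (0.857), Yap1 like Rab7a (0.797) and Tead1 like Shroom4 (0.737). The libraries share depth and tissue make-up, so these values describe likeness and are given without a test.

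**Figure D5:**
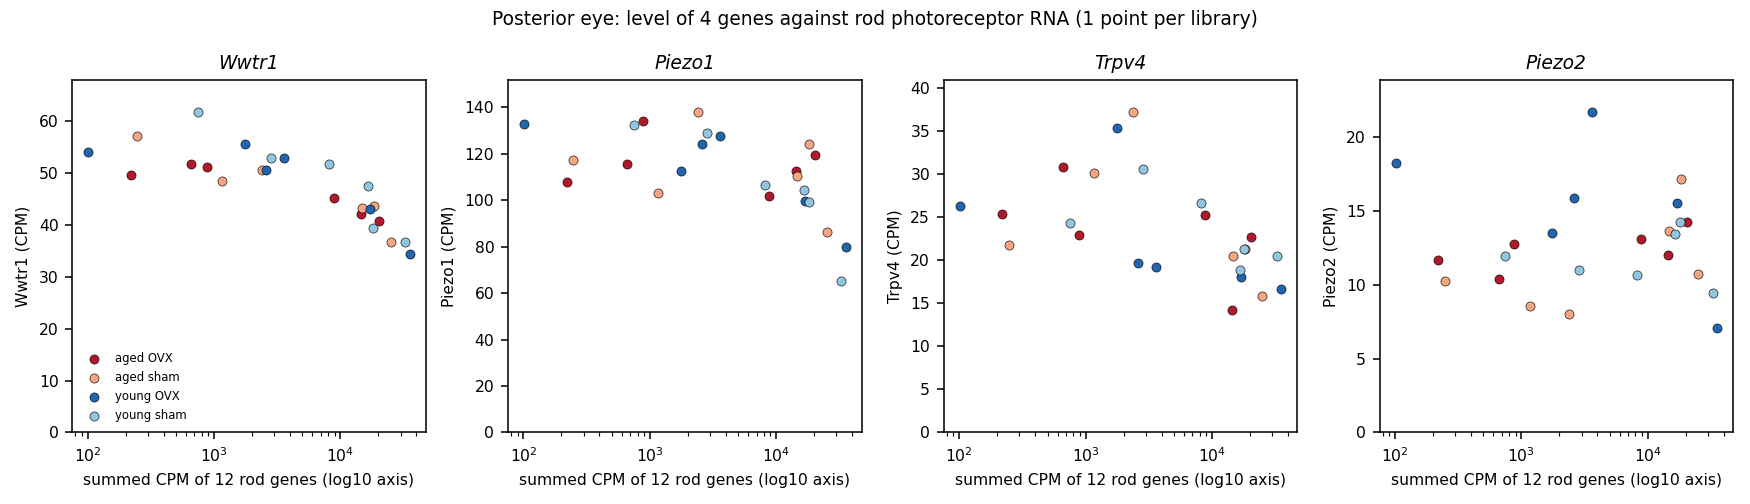
CPM of Wwtr1, Piezo1, Trpv4 and Piezo2 (linear axis from 0) against the summed CPM of 12 rod genes (log10 axis) in the 24 posterior eye libraries, coloured by group. Wwtr1 is lower in libraries with more rod RNA (r = -0.808 with the mean log2 rod level), and Piezo2 shows no such slope (r = -0.051).

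The amount of rod RNA in a posterior eye library moved with 3 of the 10 genes. Wwtr1 was lower where the mean log2 level of the rod genes was higher, with r = -0.808 and rho = -0.857 (adjusted permutation p = 0.0001 over 10 relations, r = -0.865 without the 2 farthest libraries and -0.839 within groups). Piezo1 had r = -0.576 and rho = -0.616 (adjusted permutation p = 0.0153) and Trpv4 r = -0.542 and rho = -0.624 (adjusted permutation p = 0.0214). Tagln (-0.437) and Myl9 (-0.443) did not pass, at an adjusted permutation p of 0.064 each, and Piezo2 had r = -0.051. The summed rod genes reached 219.4 to 20400 CPM in aged OVX, 246.9 to 25070 in aged sham, 101.1 to 35400 in young OVX and 748.2 to 32730 CPM in young sham posterior eyes. These ranges overlapped widely, but the medians were 4869, 8554, 3093 and 12370 CPM in the same order, lower after OVX at both ages. For OVX against sham, 12 of 12 rod genes lay below 0 in aged and 11 of 12 in young animals, none called. Beyond the fits with the rod level in the model, its part in the levels of the 10 genes was not tested. Against the skeletal muscle level, 1 of 10 relations passed: Ankrd1 had r = 0.634 (adjusted permutation p = 0.0224, 0.52 without the 2 farthest libraries), while its rho of 0.43 had an adjusted permutation p of 0.273.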

How the data were processed

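The authors deposited 1 table of raw read counts per gene for each tissue. Per the labels' protocols, 10 ng of total RNA was amplified with SMART-Seq v4, prepared with Nextera XT and sequenced on an Illumina NovaSeq; no strand-marking step is described, so overlapping antisense genes can be mixed. The submitters' processing notes name STAR 2.7.3a, HTSeq, DESeq2 and Rnor_6.0; how reads were counted is not given in those sources. Libraries were grouped by their titles. For the posterior eye, 25 symbols had been turned into dates, and these were left out of the fit over both tissues.

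The fits used edgeR 4.0.16 (R 4.3.3): TMM scaling, filterByExpr, a mean for each group, with the libraries of a tissue (or of both) fitted together, quasi-likelihood F tests, two-sided, adjusted by Benjamini-Hochberg over all genes tested and called at an adjusted p under 0.05. Standard errors, the absolute log2 change over the root of F, are approximate. DESeq2 1.42.0, limma-voom 3.58.1, other scalings, no filter, marker covariates and left-out libraries were alternatives. Code was tested on simulated data. Correlations used log2 CPM with a prior count of 2 and permutation tests.

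All 10 genes were reported in every contrast. List genes were named by smallest p, up to 4 per list for OVX over both ages and 2 for age in sham animals; for the tissue comparison, where most list genes were called, some of the 4 with the smallest p were named, and list genes shown are a selection. The members and lists were chosen with earlier results of these data known.

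The labels' animal number pairs the retina and posterior eye libraries. Deviations of the 2 libraries of an animal from their group means had a median correlation of 0.0696 (range -0.0409 to 0.283).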

Additional observations from a re-analysis of the deposited data

Results flagged for a closer look

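Among 76 sets of 6 libraries (a gene in a group and tissue), 5 held a library far from the others by Dixon's criterion, which chance meets in about 1 of 20 sets. In the posterior eye, Yap1 was 6.30 CPM in aged OVX animal 22, with the nearest of its group at 8.27 CPM. Ankrd1 was 5.49 CPM in young OVX animal 8, with the nearest at 2.77 CPM. Acta2 was 102.4 CPM in aged sham animal 16, with the nearest at 59.4 CPM. That library was 1 of the 4 rich in sebaceous and meibomian gland genes. In the retina, Piezo2 was 1.88 CPM in young sham animal 2, the retina library with the most skeletal muscle RNA (593.3 CPM), with the nearest at 1.12 CPM. Tagln was 14.2 CPM in young OVX animal 12, with the nearest at 10.5 CPM.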

How the results depend on the processing

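Under every alternative that was run (size factors of DESeq2, DESeq2, limma-voom, no filter on low counts, only the groups compared, marker covariates, and the posterior eye without the 4 libraries rich in gland genes), 0 of the 10 genes were called for OVX, age or their interaction, and all 10 were called higher in the posterior eye in each alternative of that comparison. Leaving out each library or animal in turn also left 0 and 10 called. Within a tissue, 64 of 1048 log2 changes changed sign under an alternative and 190 of 2736 with a library left out, and in the joint fit 0 of 80 and, with an animal left out, 21 of 480, none of them called. With the animal as a replicate block, made possible by the animal number in both tissues, 10 genes were called between tissues and 0 for the difference in OVX effect. The marker covariates for rod and lens genes and the exclusion of gland-rich libraries were chosen after seeing the data.

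Counts of calls over all genes depended on the tool. DESeq2 called 12 genes for OVX in young posterior eyes, where edgeR called 1, 29 over both ages, where edgeR called 0, 5 for age in sham animals, where edgeR called 0, and 65 for age in OVX animals, where edgeR called 0. In the retina DESeq2 called 62 for OVX in young animals against 3 by edgeR, 9 against 1 in aged animals, 51 against 8 over both ages, 66 against 6 for age in sham animals, 68 against 11 for age in OVX animals and 22 against 7 for the interaction. The difference in OVX effect between tissues went with 10 by DESeq2 and 1 by edgeR. The other alternatives called 0 to 6 genes per contrast in the posterior eye and 0 to 17 in the retina, and leaving out 1 library 0 to 5 and 0 to 36 in the same order. Depth limited Ankrd1 in the retina (0 to 7 counts) and Piezo2 there (10 to 53 counts).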

Other observations

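In the retina, Piezo1 was most like Fbn1 (r = 0.912), which encodes the microfibril protein fibrillin-1, F5 (0.9) and Col18a1 (0.883), a basement membrane collagen, over the 24 libraries, and Myl9 was most like Crip1 (0.761) and Tagln (0.715). Acta2, which followed Tagln in the posterior eye, did not have Tagln or Myl9 among its 5 most similar genes in the retina, where the highest r was 0.666 (Ttc25) at 1.16 to 5.17 CPM of Acta2. These are descriptions without a test.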
